A study of Mus musculus with 6 samples.

Results

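F-box protein genes were followed in the cerebral cortex of mice of 2 ages, with Fbxw15 as the gene around which the family was selected. Members are all genes whose mouse symbol consists of Fbxw, Fbxl or Fbxo and a number, which gave 75 of the 38355 genes listed in the count tables: 21 of the Fbxw class, 18 of the Fbxl class and 36 of the Fbxo class. The family was chosen by Fbxw15, which was already known to differ between the ages in these counts. Values of Fbxw15 are therefore given as a description without a test, and the other members are compared without it.

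The samples were polyadenylated RNA from dissected cortical hemispheres of wild-type C57BL/6 mice, an inbred strain, 3 of them aged 6 months and 3 aged 16 months, each from a different brain. No transgene, knockout or treatment was part of this comparison, which addressed how the cortical transcriptome differs with age. The younger age follows the sample labels, while the housing text deposited with them gives 3 months. The methods of the study state male mice for sequencing in their section on sorted cells. Their section on whole cortical tissue gives no sex.

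F-box proteins are the substrate receptors of SCF ubiquitin ligases. In these complexes the F-box binds the adaptor Skp1, which docks on the cullin scaffold Cul1, and the RING protein Rbx1 recruits the enzyme that transfers ubiquitin, while attachment of the small protein Nedd8 to the cullin switches the ligase on. The 3 classes are named after the part that holds the substrate: WD40 repeats in Fbxw proteins, leucine-rich repeats in Fbxl proteins and other domains in Fbxo proteins. In neurons, members of all classes control the turnover of synaptic and cell cycle proteins.

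Fbxw15 lies on chromosome 9 in a run of near relatives. GENCODE annotation of GRCm38, the build of the deposited counts, places 15 Fbxw genes within 1 Mb of Fbxw15, between 109139447 and 109790670, a stretch of 651.2 kb, and 12 of them are among the counted genes. Fbxw15 itself (ENSMUSG00000074060) occupies 109552602 to 109568262 on the minus strand. Fbxw14, Fbxw23 and Fbxw27 were not matched in the counts and were not analysed here. The coding sequences of the run were aligned to that of Fbxw15 to see how far reads could be told apart. Over the 1398 bases of the Fbxw15 coding sequence, identity ranged from 80.95% for Fbxw14 to 88.7% for Fbxw25, its closest relative in sequence. The first 90 coding bases of Fbxw15 and of the 3 genes most like it are shown here as an example. Over the whole coding sequence a larger share of bases differs than in this stretch. Identity there is 88.7% for Fbxw25, 87.77% for Fbxw27 and 85.05% for Fbxw24. Capitals mark bases that differ from Fbxw15 at the aligned position, of which there are 6 in Fbxw25, 7 in Fbxw27 and 10 in Fbxw24.
Fbxw15: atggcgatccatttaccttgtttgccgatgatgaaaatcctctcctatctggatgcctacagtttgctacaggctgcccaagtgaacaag
Fbxw25: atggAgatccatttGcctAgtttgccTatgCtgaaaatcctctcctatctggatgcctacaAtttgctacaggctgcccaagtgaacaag
Fbxw27: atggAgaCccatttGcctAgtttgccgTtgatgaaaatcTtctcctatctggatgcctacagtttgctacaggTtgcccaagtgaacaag
Fbxw24: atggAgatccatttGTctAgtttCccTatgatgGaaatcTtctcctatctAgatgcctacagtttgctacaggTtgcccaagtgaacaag

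No other member of the family had a stretch of at least 100 bases with 97% identity to the Fbxw15 transcript. The only transcript that did was Gm42756, a gene on the opposite strand that overlaps 168 exon bases of Fbxw15, 11.2% of its exon length, and that is not among the counted genes. The library kit does not mark the strand, so reads of Fbxw15 and Gm42756 in these bases cannot be told apart. For Fbxw28, in contrast, stretches of at least 97% identity to Fbxw14 cover 99.58% of the transcript. Its reads may therefore align more than once, and its count of 0 may not measure its level. How many of its reads could align once was not tested.

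The regions before the start sites were also read, since promoters of genes active in many tissues are often rich in CpG. RefSeq windows of 300 bases (GRCm38.p6, 250 bases before the start and 50 after it) were found for 57 of the 75 members. The 10 windows of the run around Fbxw15 held 0 to 4 CpG dinucleotides with a median of 1, while the 47 windows of the other members held 3 to 56 with a median of 20. Over all 32851 windows of the table the median was 7. The 250 bases before the start are shown for Fbxw15, for Fbxw25 and Fbxw24, and for Fbxw11, which had the highest level of the class per length of all exons, with each CpG in capitals.
Fbxw15, chr9:109568263-109568512, minus strand: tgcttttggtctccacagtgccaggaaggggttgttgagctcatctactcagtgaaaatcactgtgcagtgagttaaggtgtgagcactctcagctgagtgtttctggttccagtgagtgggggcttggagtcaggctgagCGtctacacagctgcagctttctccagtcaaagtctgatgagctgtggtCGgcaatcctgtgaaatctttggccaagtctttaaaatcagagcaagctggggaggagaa
Fbxw25, chr9:109664653-109664902, minus strand: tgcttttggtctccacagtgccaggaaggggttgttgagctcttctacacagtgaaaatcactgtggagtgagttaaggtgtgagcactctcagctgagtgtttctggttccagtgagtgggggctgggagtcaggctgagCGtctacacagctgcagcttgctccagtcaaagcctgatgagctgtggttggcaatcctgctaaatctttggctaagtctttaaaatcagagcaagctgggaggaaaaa
Fbxw24, chr9:109626060-109626309, minus strand: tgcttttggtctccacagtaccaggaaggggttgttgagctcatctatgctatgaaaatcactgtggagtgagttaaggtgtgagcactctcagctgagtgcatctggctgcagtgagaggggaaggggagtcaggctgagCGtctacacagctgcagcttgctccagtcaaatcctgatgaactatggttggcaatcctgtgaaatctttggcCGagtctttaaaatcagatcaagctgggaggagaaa
Fbxw11, chr11:32642305-32642554, plus strand: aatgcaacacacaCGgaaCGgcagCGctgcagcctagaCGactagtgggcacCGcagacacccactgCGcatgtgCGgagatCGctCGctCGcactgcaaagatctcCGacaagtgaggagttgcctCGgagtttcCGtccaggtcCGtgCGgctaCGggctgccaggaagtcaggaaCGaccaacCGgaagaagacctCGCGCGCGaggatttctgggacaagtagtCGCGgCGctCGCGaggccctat

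Upstream of the start, Fbxw25 was identical to Fbxw15 at 95.6% of 249 aligned bases and Fbxw24 at 90.8%, which is closer than in the coding sequence in both cases. These 3 windows hold 1 or 2 CpG, and that of Fbxw11 holds 27. The GC box GGGCGG, searched on both strands, occurred in 1 of the 10 windows of the run and in 33 of the 47 others, or 70.21%, against 35.66% of all windows. The TATA sequence TATAAA occurred in 0 of the 57 windows of members and in 13.62% of all windows, and CCAAT in 24.56% of members' windows and 37.41% of all. The cAMP response element TGACGTCA occurred in 1 member's window, 1.75%, against 1.79% of all. Members whose window held 10 CpG or more (40 genes) had a median level of 8.16 reads per kilobase of exon and 1000000 counts (RPKM), and the 17 members with fewer had a median of 0.0153 RPKM. Outside the run, 7 members had fewer than 10 CpG, and their median was 3.09 RPKM.

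Counts on genes ranged from 29797253 to 46519280 per sample, and the members together took 0.379% to 0.407% of them. A level of 3 counts, taken as the floor, corresponded to 0.0645 to 0.101 counts per 1000000 (CPM). This floor covers counting error only. Replicates 1 and 2 at 16 months stood apart in opposite directions with the GC content of genes. Over the 60 tested members, the deviation of a sample from the mean of its age on the log2 CPM scale correlated with GC content with r = 0.65 in replicate 1 and r = -0.76 in replicate 2 at 16 months, and with r between -0.26 and 0.17 in the other 4 samples. Over 16904 genes these values were 0.59 and -0.58 for the 2 samples. The points within a sample share 1 library, so the coefficients are descriptive.

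**Figure D1:**
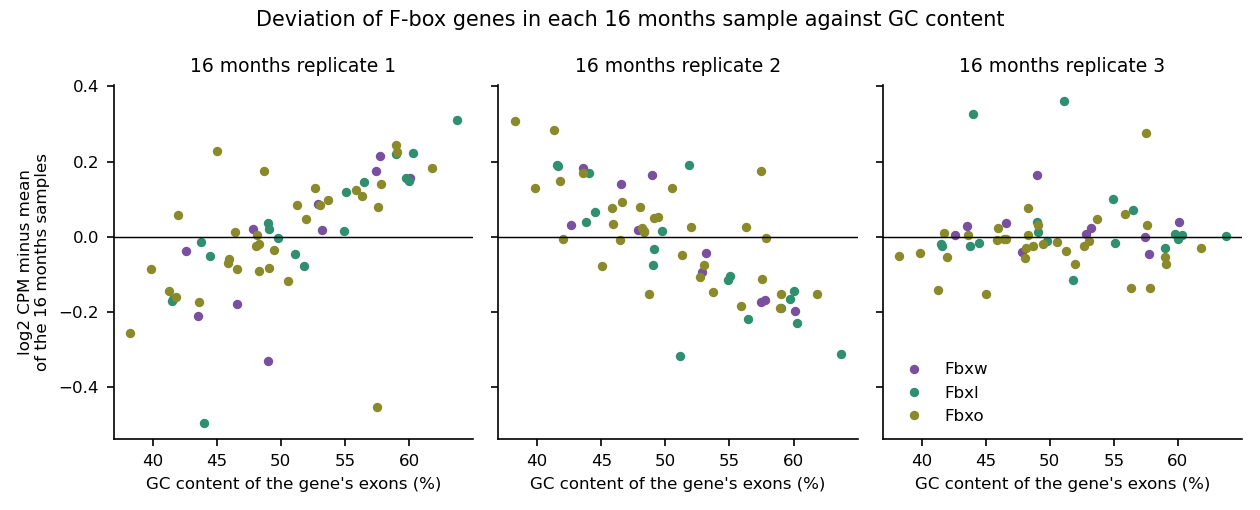
Each point is 1 of 60 tested F-box genes, with the GC content of its exons in percent on the x axis and its log2 CPM minus the mean of the 3 samples at 16 months on the y axis, and colours mark the class. Points climb with GC content in replicate 1 (r = 0.65), descend in replicate 2 (r = -0.76) and show no slope in replicate 3 (r = 0.043).

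Fbxw15, a receptor that has been reported to direct the histone acetyltransferase Hbo1 to degradation, was lower at 16 months. It had 139, 94 and 127 counts in the 6 months samples and 31, 39 and 38 counts in the 16 months samples. After scaling these were 2.97, 3.13 and 3.03 CPM against 0.935, 1.24 and 1.11 CPM. The lowest sample at 6 months was thus above the highest at 16 months, and the samples within an age lay close together. Younger samples averaged 3.04 ± 0.0851 CPM and older ones 1.097 ± 0.155 CPM (SD, n = 3), 2.77-fold less, with a log2 fold change of -1.47 (SE 0.137) for 16 over 6 months. Under the 15 alternative settings, including each sample left out in turn and offsets for GC content, the log2 fold change stayed between -1.56 and -1.36. The family was chosen by the difference of Fbxw15 in these same counts, so the SE and this range are descriptive only. In bulk tissue, fewer cells that contain a transcript and less of it per cell cannot be told apart. Markers of regions that border the cortex also differed. Of 4 markers of the thalamus, 3 were higher at 16 months (summed level 22.2 to 23.3 CPM at 6 months and 38.4 to 39.0 CPM at 16 months), and so were 3 of 4 markers of the dentate gyrus (47.8 to 50.5 and 68.2 to 72.0 CPM) and 1 of 4 of the choroid plexus (15.9 to 17.3 and 24.5 to 27.2 CPM). No marker of these lists was at or under the floor in all samples, and their part in the level of Fbxw15 was not tested. Of 4 striatal markers (139.5 to 141.9 and 140.3 to 146.6 CPM), 0 passed by edgeR or DESeq2 and 0 had an unadjusted p under 0.05. Of 6 neuronal markers (7068 to 7203 and 6921 to 7576 CPM), 0 passed by either tool and 2 had an unadjusted p under 0.05. Among 4 markers each of astrocytes, oligodendrocytes, microglia and endothelium, edgeR called 0, with 3, 1, 1 and 2 at an unadjusted p under 0.05, and DESeq2 called 2 of astrocytes and 1 of microglia. Slc17a7, the vesicular glutamate transporter of cortical excitatory neurons, was strongly present in both ages, at 976 ± 43.4 and 1091 ± 148 CPM (SD, n = 3).

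The relatives of Fbxw15 around it had few or no counts. Fbxw15 had 468 counts over the 6 samples, and the 11 other counted genes of the run had 14 counts together, 9 at 6 months and 5 at 16 months. Fbxw13, Fbxw19, Fbxw20, Fbxw21 and Fbxw28 had 0 counts in all samples. Fbxw16 had 6 counts in total and at most 2 in a sample, Fbxw24 had 4, and Fbxw18, Fbxw22, Fbxw25 and Fbxw26 had 1 each. All 11 were therefore at or under the floor in each sample, and neither a fold change nor a direction can be given for them. Levels under the floor were not detectable at this depth, and for Fbxw28 the count may not measure the level, whatever the depth. Of 41 annotated genes within 500 kb of Fbxw15, 26 were counted, among them these 11, and 9 others were abundant enough to be tested. Their log2 fold changes ranged from -0.19 to 0.20, and 0 of the 9 passed an edgeR adjusted p of 0.05 (smallest adjusted p = 0.236), with 1 at an unadjusted p under 0.05 and 0 called by DESeq2. Map4, a microtubule-associated protein gene 378.9 kb away, had a mean of 613.5 CPM at 6 months and 653.5 CPM at 16 months.

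**Figure D2:**
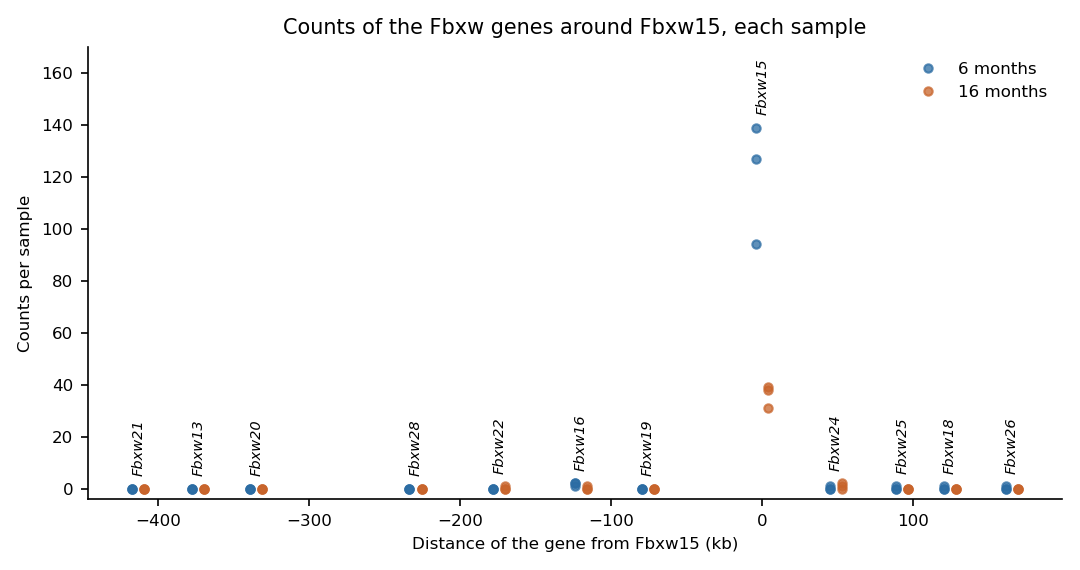
Counts in each sample (y axis) of the 12 counted Fbxw genes on chromosome 9 are plotted against their distance from Fbxw15 in kb (x axis), with 1 point per sample in the colour of its age. Fbxw15 stands at 94 to 139 counts at 6 months and 31 to 39 at 16 months, and the other 11 genes stand between 0 and 2 counts.

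The other members were tested for the difference between the ages with edgeR over all 17120 genes that passed the filter on low counts. The filter kept 60 of the 75 members: 10 of the Fbxw, 18 of the Fbxl and 32 of the Fbxo class. The 15 that did not pass were the 11 genes of the run just described and Fbxo15, Fbxo39, Fbxo40 and Fbxo43. Fbxo15, a gene known from embryonic stem cells, had 2 to 12 counts per sample, Fbxo40, known from muscle, 7 to 14, and Fbxo43 (Emi2), which holds eggs in meiosis, 3 to 12. Fbxo39 had 1 count in all.

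Besides Fbxw15, 0 of the 59 tested members passed an edgeR adjusted p of 0.05, where 1.67% of all tested genes (286 of 17120) did, and DESeq2 called 0 as well. At an unadjusted p under 0.05 there were 8 of 59, or 13.6%, 5 of them higher in the older samples and 3 lower, against 17.4% of all tested genes. The samples of the 2 ages did not overlap in 15 of 59 members (25.4%; 8 higher and 7 lower at 16 months), against 23.7% of all tested genes. Both shares over the 59 were near those of all genes. By class, the ages did not overlap in 4 of 9 Fbxw genes besides Fbxw15 (44.4%), 3 of 18 Fbxl genes (16.7%) and 8 of 32 Fbxo genes (25.0%). An unadjusted edgeR p under 0.05 was found in 3 (33.3%), 2 (11.1%) and 3 (9.38%) of them. The Fbxw shares rest on only 9 genes. The 95% interval of the log2 fold change lay within ±0.5 for 50 of the 59. It reached beyond this range for the other 9, which were Fbxw10, whose estimate of -0.70 itself lies outside, and 8 genes with estimates inside, among them Fbxl22, Fbxl8 and Fbxo5.

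These counts depended on the samples with the GC shift. Without replicate 2 at 16 months, 7 of the other members passed the adjusted p of edgeR, among them Fbxl16, Fbxl17, Fbxo10 and Fbxw8, which were higher, and Fbxl5 and Fbxo32, which were lower at 16 months, against 12.7% of all genes tested in that setting. With the GC content and length of genes taken up as offsets per sample, 10 of 59 passed: Fbxl16, Fbxo10, Fbxo11 and Fbxw8 were higher and Fbxl12, Fbxl20, Fbxl4, Fbxl5, Fbxo32 and Fbxw10 lower, against 14.2% of all tested genes. Without replicate 1 at 16 months, 1 passed, which was Fbxo2, against 5.73% of all genes tested in that setting.

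The class medians lay near 0. The median log2 fold change was 0.013 over the 9 tested Fbxw genes besides Fbxw15 (-0.0039 with it), 0.011 over the 18 Fbxl genes and -0.0005 over the 32 Fbxo genes, beside 0.0014 over all tested genes. Differences above 0 were found in 5 of 9 Fbxw genes besides Fbxw15, 9 of 18 Fbxl genes and 16 of 32 Fbxo genes. The spread between samples was wider at 16 months: the median SD of log2 CPM over the members was 0.056 in the younger and 0.127 in the older samples, and 46 of 60 members (76.7%) had the larger SD at 16 months. All genes gave 0.063 and 0.128 and 75.5%.

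**Figure D3:**
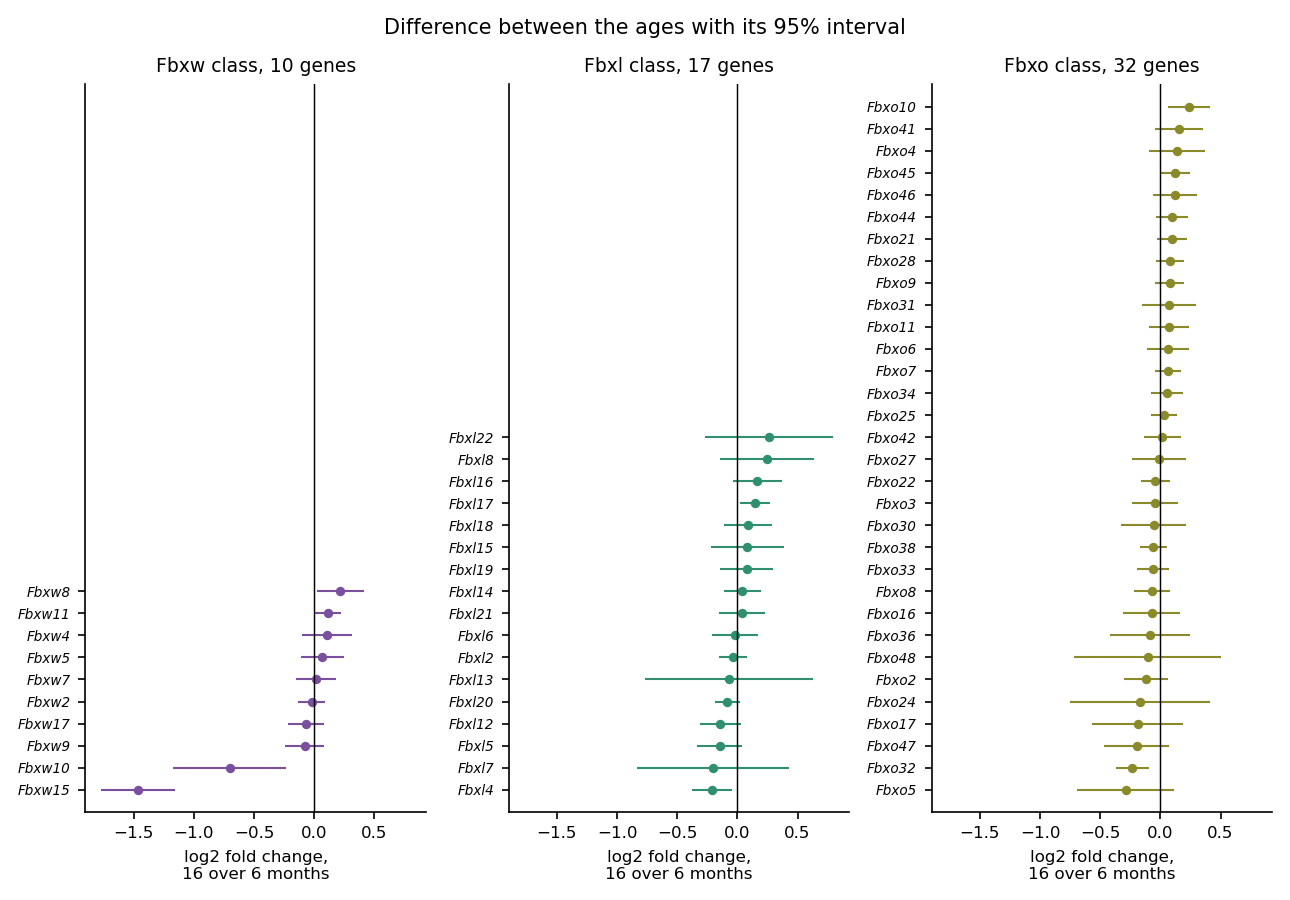
Points give the log2 fold change of 16 over 6 months from edgeR for Fbxw15 and 58 other tested F-box genes, sorted within the 3 classes, and bars give the 95% interval. Fbxw15 lies at -1.47, Fbxw10 at -0.70, and all others lie between -0.29 and 0.26. The interval of Fbxw15, by which the family was chosen, is descriptive only.

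Of the Fbxw class, 3 genes reached 10 RPKM in the mean of all samples. Fbxw11 (beta-TrCP2), a receptor for beta-catenin and the NF-kappaB inhibitor, had 162, 164 and 166 CPM at 6 months and 180, 179 and 172 CPM at 16 months. All 3 older samples were above the younger ones, by a log2 fold change of 0.11 (SE 0.0485, edgeR adjusted p = 0.271). Fbxw7, the receptor for cyclin E, Myc, Jun and Notch, had 265, 276 and 276 CPM against 242, 302 and 280 CPM. The lowest and the highest of these 6 values were the replicates 1 and 2 at 16 months, and its 95% interval of the log2 fold change was -0.16 to 0.18. Fbxw5 stood at 23.1 ± 0.403 RPKM at 6 months and 24.2 ± 2.92 RPKM at 16 months (SD, n = 3). Per length of all exons, Fbxw11 and Fbxw7 were level with each other (39.4 and 38.8 RPKM over all samples), whereas per length of the longest transcript Fbxw7 was higher (61.1 against 42.4 RPKM), and Fbxw15 ranked 47 of the 75 members with 1.38 RPKM.

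Further down the class, Fbxw8 had the largest positive difference. This partner of the cullin Cul7, with a role in dendrite growth, had 38.6, 39.5 and 39.2 CPM at 6 months and 52.4, 40.2 and 43.7 CPM at 16 months. The ages did not overlap, but replicate 2 at 16 months lay next to the younger samples. The log2 fold change was 0.22 (SE 0.0878, edgeR adjusted p = 0.239), and without that replicate it was 0.30 (edgeR adjusted p = 0.0215). Fbxw8 shares 1845 exon bases, 33.4% of its exon length, with the counted antisense gene Gm9754, and reads in them cannot be told apart by strand. If counting ignored the strand, HTSeq left such reads out, and RPKM per length of all exons are then too low. Fbxw10, a member of little known function on chromosome 11, was near the lower end of what could be measured, with 1.13, 0.967 and 0.954 CPM against 0.483, 0.702 and 0.703 CPM. Its ages did not overlap either, and its log2 fold change of -0.70 (SE 0.210) was the largest besides Fbxw15 but did not pass (edgeR adjusted p = 0.132). It shares 237 exon bases, 5.89% of its exon length, with Trim16 on the same strand. Fbxw2 stood at 8.68 ± 0.237 and 8.56 ± 0.211 RPKM at 6 and 16 months, and Fbxw4, the gene altered in the dactylaplasia limb mutant, at 4.60 ± 0.250 and 4.93 ± 0.603 RPKM (SD, n = 3). Fbxw4 shares 21.4% of its exon length with the counted gene Gm17018 on the opposite strand, and the same limit holds for its RPKM.

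**Figure D4:**
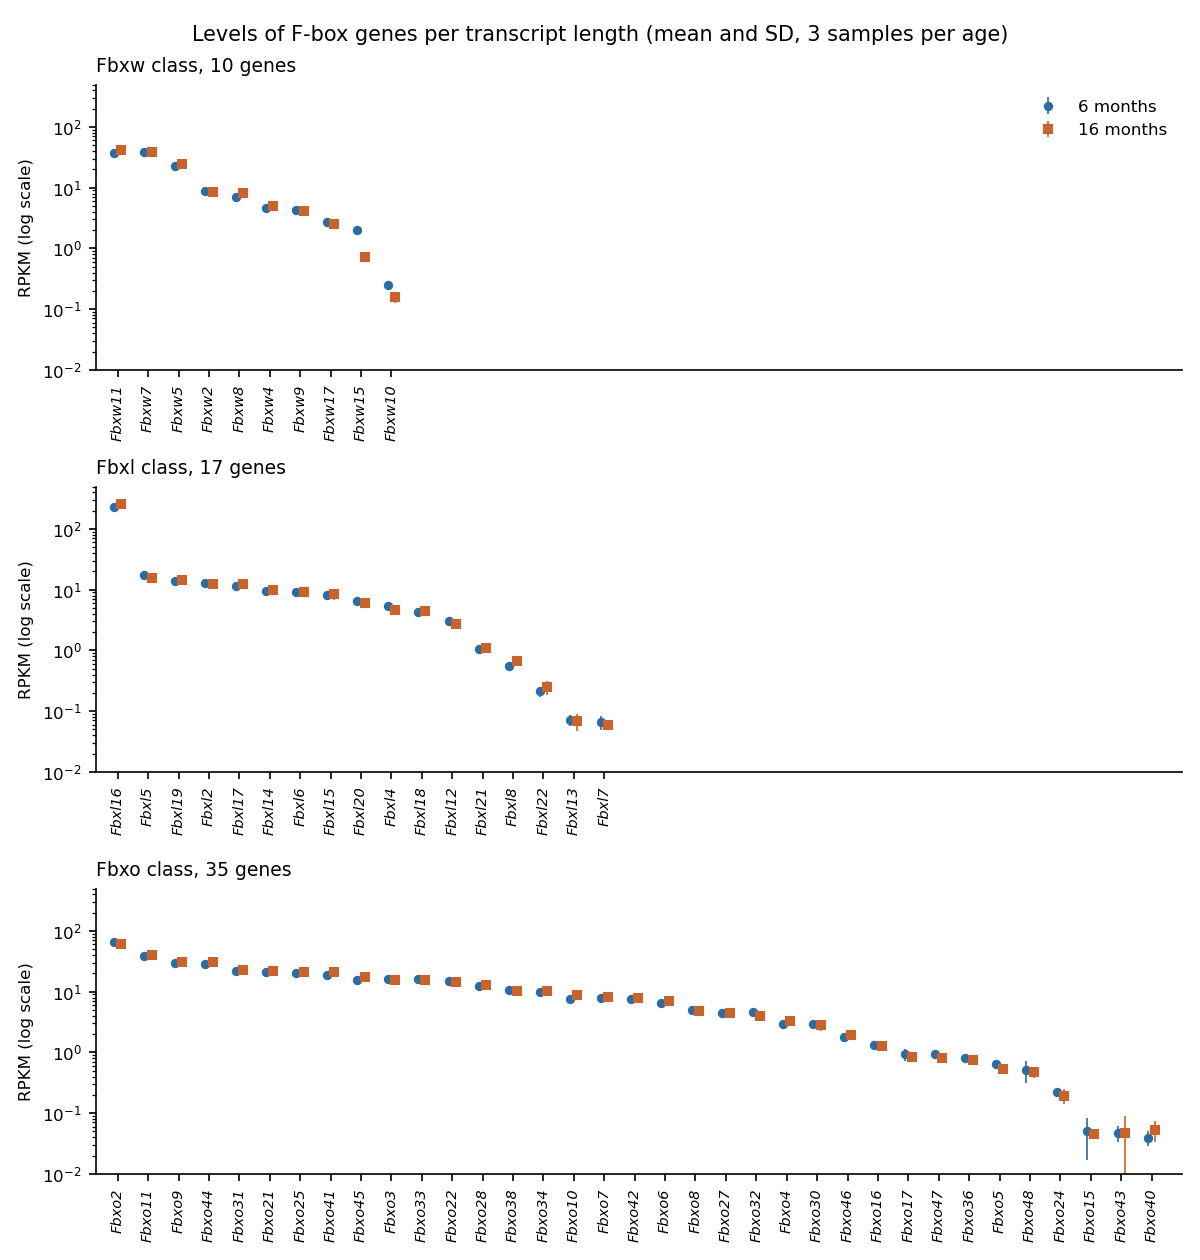
Mean RPKM at 6 months (circles) and 16 months (squares) with the SD of 3 samples as bars, on a log axis, for 62 members with more than 3 counts in at least 1 sample, sorted by level within each class. Fbxl16 is at the top with 239.4 RPKM over all samples, and Fbxw15 is the member whose ages are farthest apart.

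In the Fbxl class, a single gene outweighed the others. Fbxl16, an F-box gene known for its expression in brain, had 239.4 RPKM over all samples, the highest level of the family, with Fbxo2 next at 64.2 RPKM. In CPM it had 828, 774 and 827 at 6 months and 1050, 790 and 883 at 16 months. The ages overlapped, since replicate 2 at 16 months was below 2 of the younger samples, and the log2 fold change was 0.17 with a 95% interval of -0.037 to 0.37. Fbxl16 accounted for about the same number of counts as the rest of its class, as the class summed to 1551 ± 21.9 CPM in the younger and 1622 ± 122 CPM in the older samples (SD, n = 3), of which Fbxl16 made up 809.5 and 907.8 CPM.

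Other Fbxl genes were well below that level. Fbxl21 had 1.07 ± 0.0577 RPKM at 6 months and 1.09 ± 0.0268 RPKM at 16 months (SD, n = 3). Fbxl5, the iron sensor that removes the iron regulatory protein Ireb2, had 17.2 ± 0.669 and 15.6 ± 1.94 RPKM.

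Among the synaptic and neuronal members of the class, Fbxl20 (Scrapper), which acts on the release protein Rim1, stood at 6.49 ± 0.0800 RPKM at 6 months and 6.13 ± 0.0565 RPKM at 16 months (SD, n = 3). Its samples did not overlap between the ages, and the difference was small, with a log2 fold change of -0.082. Fbxl2 had 12.9 ± 0.521 and 12.6 ± 0.250 RPKM, Fbxl19, which carries a CXXC domain that binds CpG-rich DNA, had 13.7 ± 0.633 and 14.4 ± 2.25 RPKM, and Fbxl7 was low at 0.0661 ± 0.0173 and 0.0593 ± 0.0080 RPKM.

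Fbxl4, whose protein lies in mitochondria and whose loss causes a mitochondrial DNA depletion syndrome, had 18.6, 22.0 and 20.3 CPM against 16.9, 18.3 and 17.3 CPM. All older samples were below the younger ones, with a log2 fold change of -0.21 (SE 0.0751, edgeR adjusted p = 0.190). Fbxl17, a quality control receptor for BTB domain dimers, lay the other way in all samples, with 64.9, 61.7 and 60.8 CPM against 70.9, 65.6 and 71.0 CPM and a log2 fold change of 0.15 (SE 0.0563, edgeR adjusted p = 0.218). The remaining large differences of the class were in sparse genes: Fbxl22, known from cardiac sarcomeres, at 0.26 (SE 0.239, edgeR adjusted p = 0.615) and Fbxl8 at 0.25 (SE 0.175, edgeR adjusted p = 0.509).

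**Figure D5:**
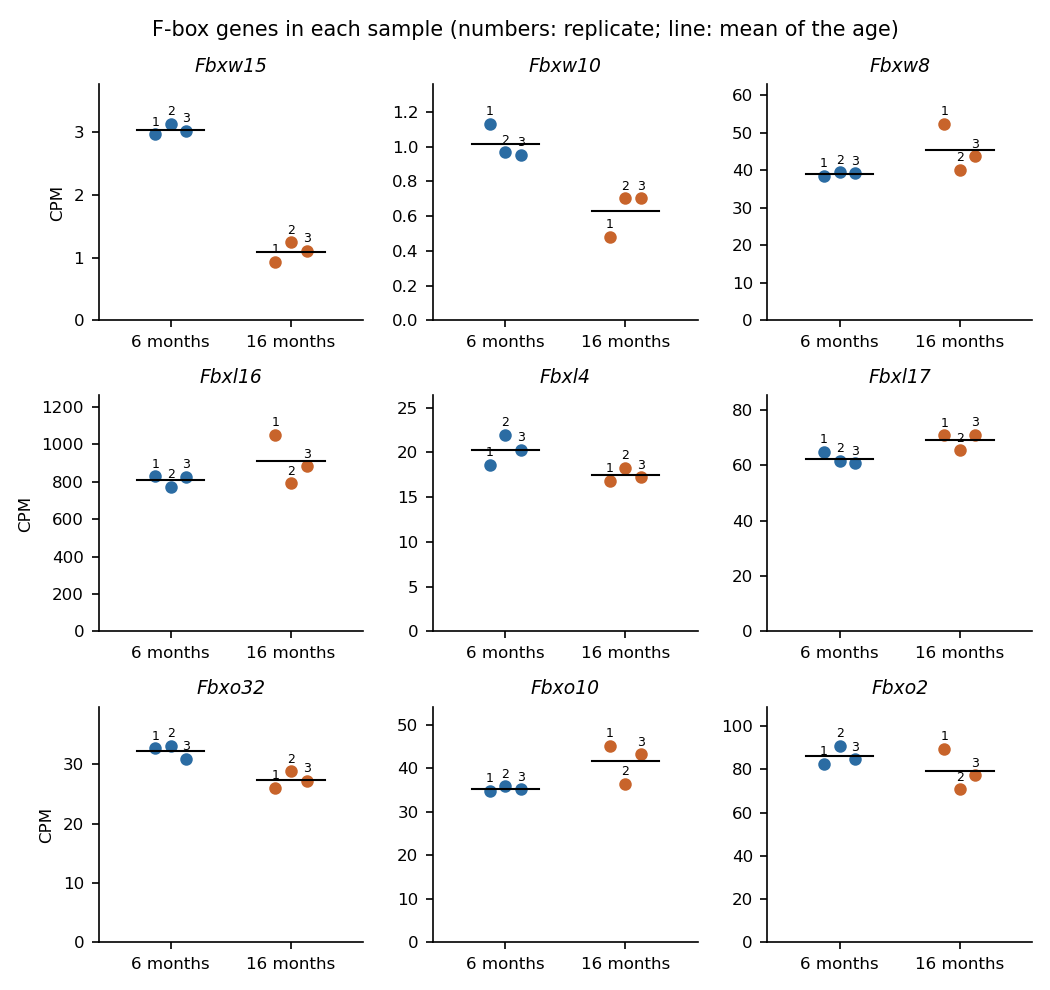
CPM in each of the 6 samples for 9 members, with the replicate number above each point and a line at the mean of the age (y axes start at 0). Ages do not overlap for Fbxw15, Fbxw10, Fbxw8, Fbxl4, Fbxl17, Fbxo32 and Fbxo10 and overlap for Fbxl16 and Fbxo2.

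Fbxo32 (atrogin-1), known as a marker of muscle atrophy, had 32.7, 33.1 and 31.0 CPM at 6 months and 26.1, 28.9 and 27.3 CPM at 16 months. All 3 older samples were below the younger ones, the log2 fold change was -0.23 (SE 0.0614), and the edgeR adjusted p of 0.0935 was the lowest among the 59 members. Over the 15 alternatives the log2 fold change lay between -0.27 and -0.20, and when replicate numbers were blocked the adjusted p was 0.0459. Of 4 skeletal muscle markers, 2 were abundant enough to be tested and 1 was at or under the floor in all samples. Their summed level was 7.15 to 7.30 CPM at 6 months and 6.83 to 7.81 CPM at 16 months. Most of this sum was 1 gene, Acta1, with means of 6.44 and 6.54 CPM. Fbxo32 and the antisense gene Gm15943 share 186 exon bases, or 2.67% of the exon length of Fbxo32.

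Fbxo10, a receptor for the survival protein Bcl2, differed in the other direction. Its levels were 34.9, 35.9 and 35.2 CPM at 6 months and 45.2, 36.5 and 43.3 CPM at 16 months. The older samples were all higher, replicate 2 only by a small margin, with a log2 fold change of 0.24 (SE 0.0780, edgeR adjusted p = 0.161), and without that replicate it was 0.32 (edgeR adjusted p = 0.00479). Fbxo45, which forms an atypical ligase with Mycbp2 at synapses, had 67.0, 65.6 and 66.0 CPM against 70.9, 76.2 and 69.4 CPM, a log2 fold change of 0.12 (SE 0.0543, edgeR adjusted p = 0.278). For Fbxo5 (Emi1), an inhibitor of the anaphase-promoting complex in dividing cells, the level was near 1 CPM and the log2 fold change was -0.29 (SE 0.180, edgeR adjusted p = 0.451).

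Fbxo2, Fbxo44 and Fbxo6 lie next to each other on chromosome 4 between 148145716 and 148166424 and differed in level. Fbxo2, a neuronal receptor for N-glycans on proteins returned from the endoplasmic reticulum, had 82.6, 90.9 and 84.8 CPM at 6 months and 89.6, 70.9 and 77.2 CPM at 16 months, which overlapped. Its level per length was 64.2 RPKM over all samples, beside 30.0 RPKM for Fbxo44 and 6.76 RPKM for Fbxo6, a second glycan receptor. Another adjacent pair, Fbxo27 and Fbxo17 on chromosome 7, stood at 4.48 and 0.883 RPKM.

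The other studied Fbxo genes named here stood above the median of the class, which was 7.24 RPKM. Fbxo11, a receptor for Bcl6, had 38.8 ± 0.377 RPKM at 6 months and 40.7 ± 4.32 RPKM at 16 months (SD, n = 3), and Fbxo9 had 29.4 ± 0.719 and 31.0 ± 1.36 RPKM. Fbxo31, a receptor for cyclin D1, had 21.7 ± 1.47 and 22.9 ± 3.60 RPKM, and Fbxo41, a neuronal protein of the centrosome, had 18.9 ± 0.846 and 21.1 ± 2.99 RPKM. Fbxo7, mutated in an inherited parkinsonism, was measured tightly, at 7.94 ± 0.0948 and 8.29 ± 0.0710 RPKM, with non-overlapping ages and a log2 fold change of 0.06. Fbxo3 had 16.2 ± 1.08 and 15.7 ± 1.87 RPKM, and Fbxo28 had 12.4 ± 0.164 and 13.1 ± 0.453 RPKM. Dividing by the longest transcript instead of all exons changed which members were the 5 highest, with Fbxo44 (49.6 RPKM) in place of Fbxw11 (42.4 RPKM), while the ranks of the 60 tested members correlated with rho = 0.99.

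The rest of the ligase machinery was measured with lists of 64 symbols, of which 63 matched counted genes and 62 were tested. The symbol without a match was Skp1, and the adaptor was counted as Skp1a. At an edgeR adjusted p of 0.05, 0 of the 62 were called, where 1.67% of all tested genes were, and DESeq2 called 0. At an unadjusted p under 0.05 there were 11, or 17.7%, against 17.4% of all tested genes. The core subunits were abundant: Skp1a, the adaptor, stood at 349 ± 16.3 CPM in the younger and 324 ± 49.5 CPM in the older samples (SD, n = 3), and Cul1 at 154 ± 3.53 and 153 ± 12.9 CPM. Of the 6 tested core genes 1 had a log2 fold change above 0, with a list median of -0.085, and 11 of the 22 genes of the Nedd8 cycle did (median -0.0052).

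Nedd8 itself had 69.2 ± 2.51 CPM at 6 months and 62.6 ± 0.395 CPM at 16 months (log2 fold change -0.15, edgeR adjusted p = 0.185). The ubiquitin-conjugating enzyme gene Cdc34 had 22.9 ± 1.08 and 25.7 ± 4.78 CPM (SD, n = 3; log2 fold change 0.17, edgeR adjusted p = 0.492), and 5 of the 8 genes of its list were above 0 (median 0.054). F-box genes that carry other symbols gave 5 of 7 tested genes above 0 (median 0.055), with Btrc, the closest relative of Fbxw11, at 146 ± 1.37 and 154 ± 4.12 CPM.

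Transcripts of known SCF substrates lay above 0 in 16 of 19 genes, with a median log2 fold change of 0.082, the highest of the 5 lists. Of the 19, 0 passed the edgeR test and 0 were called by DESeq2. An unadjusted edgeR p under 0.05 was found in 5, against 17.4% of all tested genes. These are transcript levels, and the turnover of the proteins was not measured. Cyclin E1 (Ccne1), a substrate of Fbxw7, had 12.6 ± 0.506 and 13.9 ± 0.693 CPM (SD, n = 3), a log2 fold change of 0.14 (edgeR adjusted p = 0.337). Jun had the lowest adjusted p of the list, with a log2 fold change of 0.25 (edgeR adjusted p = 0.136), and Myc the largest difference, 0.30 (edgeR adjusted p = 0.192). Over all tested genes, 8619 of 17120 lay above 0.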

How the data were processed

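Per the study's methods, the authors trimmed the paired reads with fastq-mcf, ran STAR (2-pass) against mm10, and obtained reads per Ensembl gene from HTSeq; the submitters' processing notes name CASAVA 1.8.2, STAR 2.3.0e and featureCounts 1.5.0-p1 instead. The deposited files end with the summary lines of HTSeq, which were left out. The values are raw counts per gene, as deposited, without normalization; the Ensembl release and strand setting were not given in the sources used here. Reads that align more than once or overlap more than 1 gene are not counted by HTSeq, so near-identical copies are measured by the parts that differ.

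Identifiers were matched to the GENCODE annotation of GRCm38 for 36602 of the 38355 genes. Counts were tested with edgeR 4.0.16 in R 4.3.3 (TMM, filterByExpr, quasi-likelihood test, no covariates, Benjamini-Hochberg adjustment over 17120 genes, threshold 0.05), and DESeq2 1.42.0 was an alternative. On simulated counts, the test recovered 85.3% of changes of 1 and 60.4% of changes of 0.5 on the log2 scale. The simulation held no GC shift between samples, so it cannot show how the test behaves under that shift. CPM are TMM-scaled, RPKM divide CPM by the length of all exons of a gene, and log2 CPM use a prior count of 2. Near-identical transcripts were sought with blastn 2.17.0, sequences were aligned with Biopython 1.88, and figures were drawn with matplotlib 3.10.9.

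The members, gene lists and tests were chosen with earlier results of these data known. The genes named are Fbxw15, the Fbxw genes within 1 Mb of it, in each class the 3 highest and the 3 with the largest change, a fixed set of studied members, and the first gene of each pathway list; other genes were named after their values were seen. The values of 1 member are not reported here; it stays in all counts and medians. Alternatives were other normalizations, filters and tests, offsets for GC content and length in 20 bins, the replicate number as a block, and each sample left out. Nothing in the labels ties same-numbered mice together, and p-values measure the spread between 3 samples per age. Each sample is 1 library from 1 brain, so differences between brains and between libraries cannot be told apart.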

Additional observations from a re-analysis of the deposited data

How the results depend on the processing

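The settings moved the counts of calls. Without Fbxw15, the called F-box genes numbered 0 of 59 as reported and 1 of 59 with the replicate block (Fbxo32). They numbered 10 of 59 with offsets for GC content and length and 16 of 59 with these offsets and the replicate block. There were 0 to 7 when each sample was left out, and 0 under the other 6 alternatives. Over all 17120 tested genes, 286 (1.67%) were called as reported, 783 with the replicate block, 2427 (14.2%) with the offsets and 3320 with the offsets and the block. Of 27569 genes each, 471 were called with DESeq2 and 648 without the filter on low counts. With a sample left out there were 48 to 2211, the highest without replicate 2 at 16 months (12.7% of genes tested in that setting). The pathway lists, with 62 tested genes, had 0 calls as reported, 12 with the offsets and 17 with the offsets and the block. With a sample left out they had 0 to 10 calls. The neighbours of Fbxw15 had 0 to 1 with a sample left out (Tma7, without replicate 2 at 16 months). The cause of these differences was not tested.

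Class medians of the log2 fold change stayed near 0. For Fbxw genes, Fbxw15 included, the median was -0.0039 as reported, -0.045 with DESeq2, -0.051 without the filter, -0.019 with upper quartile normalization and -0.037 to 0.0090 with a sample left out. For Fbxo genes it was -0.015 with upper quartile normalization and -0.0007 to 0.033 with a sample left out, and for Fbxl genes -0.044 to 0.040 with a sample left out. The median level of the tested members was 7.92 RPKM, and 8.38 RPKM by the longest transcript. Log2 fold changes were followed for 11 tested genes, picked for a large change in their class or an unadjusted edgeR p under 0.05 as reported. Of their 165 values, 147 stayed on their side of the threshold, 18 passed it anew, and 0 changed direction. Genes picked for their change in these same samples could hardly change direction, so the last count does not describe the other members.

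Same-numbered samples of the 2 ages deviated together weakly over 17120 genes (r = 0.18, 0.096 and 0.035 for replicates 1, 2 and 3). Differently numbered samples gave r from -0.13 to 0.038. Replicates 1 and 2 at 16 months thus correlated best with their own number, and replicate 3 about equally with replicates 2 and 3 at 6 months. The numbers were not taken as pairs, since nothing in the labels ties them together. No difference could be measured for 11 Fbxw genes and Fbxo39, at or under 3 counts in all samples. For Fbxw28 the near-identical Fbxw14 may set this limit, whatever the depth.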
